A study of Mus musculus with 2 samples.

Results

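Genes of glycogen synthesis and breakdown were followed in mouse calf muscle: Pygm, Pygb, Gys1, Gyg, Gbe1, Phka1, Phkb, Phkg1 and Ppp1r3a. They were picked out by gene symbol, and they are 9 of the 55536 annotated genes in the deposited tables. Total RNA had been sequenced from the gastrocnemius, a large calf muscle, of male B6CASTF1/J mice, the F1 offspring of C57BL/6J and CAST/EiJ, at an age of 14 days. Synthetic ERCC RNAs had been added in amounts meant for stranded libraries with less ribosomal RNA. The series held 1 group of 2 replicate libraries, each made from 300 ng of RNA, with no treatment and no second genotype. The labels speak of several males but give 1 donor identifier for both libraries, so the spread between the libraries may be technical, and every p-value below measures only these libraries. Each library is a mixture of all cells of the muscle, in which fewer cells of a type and less RNA per cell cannot be told apart.

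Glycogen is a branched glucose polymer that muscle fibres build at rest and break down to fuel contraction. Building starts on glycogenin, a protein that glucosylates itself. Glycogen synthase then lengthens the chains and the branching enzyme adds branch points. Glycogen phosphorylase releases glucose units as glucose 1-phosphate. It is switched on by phosphorylase kinase, a complex of α, β and γ subunits and a calcium-binding subunit, in response to calcium and adrenaline. Protein phosphatase 1, brought to the glycogen particle by targeting subunits, reverses that step and activates the synthase. Muscle, liver and brain use different genes for several of these proteins.

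The libraries held 40527316 and 36999974 expected counts on annotated genes in replicates 1 and 2. Member genes had between 394 and 168009 counts per library. Levels are given in TPM, an abundance divided by transcript length and scaled to a fixed sum per library, so that genes can be compared. Ranks are among 22015 nuclear protein-coding genes, of which 11077 averaged 1 TPM or more, with a median of 7.55 TPM over those. The tissue label was checked with 6 muscle fibre markers (Acta1, Ckm, Mylpf, Myh4, Tnnt3 and Atp2a1), which summed to 99109 and 106159 TPM and were all among the 9 most abundant protein-coding genes. Of 5 hepatocyte markers none reached 1 TPM, Serpina1a had no count in either library, and the sum was 0.47 and 0.65 TPM.

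All 9 genes were detected at 1 TPM or more in both libraries, from the muscle phosphorylase Pygm, at 2182 and 2167 TPM, down to the brain phosphorylase Pygb, at 4.78 and 4.01 TPM. The median of the members was 90.9 TPM. Pygm alone made up 79.0% and 78.9% of the summed TPM of the 9 genes. The other 7 genes, those of the kinase, the synthesis enzymes and Ppp1r3a, lay between 22.7 and 132 TPM.

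**Figure D1:**
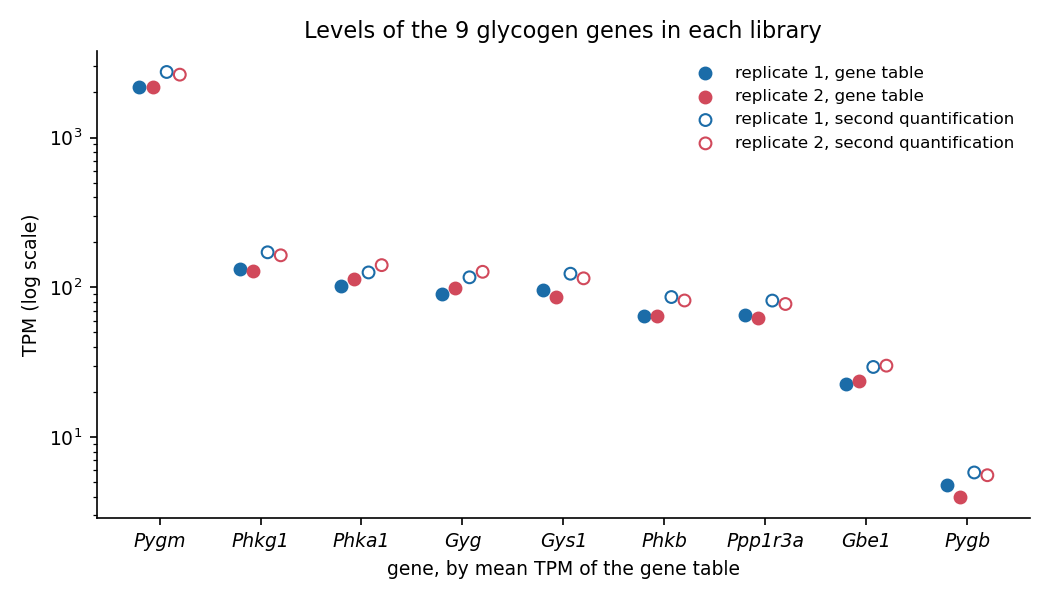
TPM of each of the 9 genes on a log scale, ordered by the mean of the gene table, with 1 point per library and quantification (filled for the gene table, open for the second transcript quantification summed per gene). Pygm stands at 2182 and 2167 TPM in the gene table, Pygb at 4.78 and 4.01 TPM, and the libraries lie close together for every gene.

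Pygm encodes muscle glycogen phosphorylase, the enzyme missing in McArdle disease (ENSMUSG00000032648.14, GRCm38 chromosome 19, 6384399 to 6398459, plus strand). Its level was 2182 TPM in replicate 1 and 2167 TPM in replicate 2, a mean of 2174 ± 10.6 TPM (SD, n = 2). It ranked 19 among protein-coding genes. The interval that the quantifier itself reported was 2115 to 2158 TPM for replicate 1 and 2097 to 2141 TPM for replicate 2. These intervals overlapped, although the deposited TPM lay above its own interval in both libraries.

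Pygb encodes the brain form of phosphorylase (ENSMUSG00000033059.7, GRCm38 chromosome 2, 150786735 to 150831758, plus strand). Its level was 4.78 TPM in replicate 1 and 4.01 TPM in replicate 2, from 469 and 394 counts. Pygl, the liver form, lay lower still at 1.46 and 0.85 TPM, from 82 and 70 counts. The order muscle, brain, liver form held in both libraries. Pygm was 456 and 540 times Pygb, and Pygb was 3.27 and 4.72 times Pygl.

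Phosphorylase kinase was present mainly as the muscle forms of its subunits. Phkg1 encodes the catalytic γ subunit of muscle (ENSMUSG00000025537.12, GRCm38 chromosome 5, 129863421 to 129898549, minus strand) and measured 132 TPM in replicate 1 and 128 TPM in replicate 2. Phka1 encodes the muscle α subunit, which restrains the catalytic subunit until it is phosphorylated (ENSMUSG00000034055.16, GRCm38 chromosome X, 102513975 to 102644246, minus strand), and measured 102 and 113 TPM. Phkb encodes the regulatory β subunit that muscle and liver share (ENSMUSG00000036879.15, GRCm38 chromosome 8, 85840959 to 86061376, plus strand) and measured 64.3 and 64.1 TPM. The order γ, α, β was the same in both libraries and their ranges did not overlap.

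The liver forms of the α and γ subunits were far lower. Phka2 measured 3.77 and 2.64 TPM, so that Phka1 was 27.1 and 42.9 times as abundant. Phkg2 measured 4.82 and 4.07 TPM, and Phkg1 was 27.5 and 31.5 times as abundant. The muscle forms were thus the higher ones for both subunits in both libraries.

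Phka1 was the kinase gene whose annotated full-length transcripts differed in coding sequence at comparable levels, and the exons that differ are shown here. These exons were picked after the values had been seen. Phka1-202, with 33 exons and a coding sequence of 3723 bases, held 41.4% ± 1.23 of the gene's summed TPM (SD, n = 2). Phka1-201, with 32 exons and 3546 coding bases, held 27.8% ± 0.61. They differ by exon 19 of Phka1-202, a coding exon of 177 bases, or 59 codons, that keeps the frame (chrX:102557096-102557272, GRCm38, minus strand). A shorter α protein that lacks an internal segment, called α′, is known from slow muscle and heart. The exon reads, in lower case because no base is singled out, from the GENCODE M21 transcript sequences:
Phka1 exon 19: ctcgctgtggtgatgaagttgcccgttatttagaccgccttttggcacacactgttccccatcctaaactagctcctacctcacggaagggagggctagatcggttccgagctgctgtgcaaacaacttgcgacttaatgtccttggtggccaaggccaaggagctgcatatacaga

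Among Phka1 transcripts with a near-complete coding sequence, exon 19 was included in 60.0% of the TPM in replicate 1 and 60.1% in replicate 2. The second quantification gave 62.4% and 64.5%. Both libraries and both quantifications thus placed the longer form above the shorter one. When Phka1-207, a record with a retained intron that carries the exon, was counted as well, inclusion was 72.6% and 71.8%.

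A second variable place in Phka1 holds a choice between 39-base coding exons that lie next to each other. The upstream one, exon 28 of Phka1-202 (chrX:102532077-102532115), was in 99.1% of near-complete coding TPM in replicate 1 and in all of it in replicate 2. The downstream one (chrX:102531922-102531960) was in 0.357% and 0% of it. The second quantification placed 8.11% and 4.20% on the downstream exon, so the upstream exon dominated in both while its exact share depended on the quantification. The exons, both on the minus strand of GRCm38 and 13 codons long, are identical at 34 of 39 bases, and capitals mark the bases that differ:
Phka1 upstream 39-base exon: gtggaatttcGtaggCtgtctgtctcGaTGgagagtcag
Phka1 downstream 39-base exon: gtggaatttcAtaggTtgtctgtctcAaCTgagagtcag

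Among the members, the genes of glycogen building lay within a narrower band than those of breakdown. That comparison depends on which paralogues are members. The brain phosphorylase Pygb, at 4.78 and 4.01 TPM, is a member, whereas the liver synthase Gys2, at 0.01 and 0.16 TPM, is not. Gyg encodes glycogenin, the primer (ENSMUSG00000019528.18, GRCm38 chromosome 3, 20122084 to 20155317, minus strand), and measured 90.6 TPM in replicate 1 and 98.9 TPM in replicate 2. Gys1 encodes muscle glycogen synthase (ENSMUSG00000003865.16, GRCm38 chromosome 7, 45434844 to 45456619, plus strand) and measured 96.1 and 85.7 TPM. The ranges of Gyg and Gys1 overlapped, and the ratio of Gys1 to Gyg was 1.06 in replicate 1 and 0.867 in replicate 2. Their order was therefore not settled by these libraries.

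Gbe1 encodes the branching enzyme (ENSMUSG00000022707.16, GRCm38 chromosome 16, 70313949 to 70569716, plus strand) and measured 22.7 TPM in replicate 1 and 23.8 TPM in replicate 2. It was the lowest of the synthesis genes in both libraries, with Gys1 at 4.23 and 3.60 times its level. The liver synthase Gys2 had 1 count in replicate 1 and 2 counts in replicate 2, against 19635 counts of Gys1 over both libraries. Per base of transcript, Gys1 was 4728 times Gys2, with a 95% interval of 1618 to 22929 that covers counting error only. By TPM the ratio was 9612 in replicate 1 and 536 in replicate 2, the latter below that interval. Gys2 stood at 0.01 and 0.16 TPM.

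Ppp1r3a encodes the striated-muscle subunit that targets protein phosphatase 1 to glycogen and to the sarcoplasmic reticulum (ENSMUSG00000042717.5, GRCm38 chromosome 6, 14713977 to 14755274, minus strand). It measured 65.9 TPM in replicate 1 and 62.0 TPM in replicate 2, a range that overlapped that of Phkb. Ppp1r3c, which encodes the widely expressed targeting subunit known as PTG, was higher, at 103.8 and 90.2 TPM. Ppp1r3a thus reached 0.635 and 0.687 of Ppp1r3c. In the 9 paralogue pairs compared, a member was set first, and in the pair of Pygm and Pygb, both members, Pygm was set first. Ppp1r3a with Ppp1r3c was the 1 pair in which the gene set first was the lower one, in both libraries and in the second quantification. Ppp1r3e, Ppp1r3f and Ppp1r3g were not among the pairs.

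The remaining targeting subunits were low. Ppp1r3d stood at 2.13 and 2.01 TPM, and Ppp1r3a was 30.9 and 30.8 times as abundant. Ppp1r3b, the liver form, stood at 0.34 and 0.38 TPM, and Ppp1r3a was 194 and 163 times as abundant. Ppp1r3e measured 1.26 and 2.08 TPM and Ppp1r3f 0.46 and 0.77 TPM. Ppp1r3g had no count in either library, which allows up to 3 counts in each. The targeting subunits were thus represented mainly by Ppp1r3c and Ppp1r3a.

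**Figure D2:**
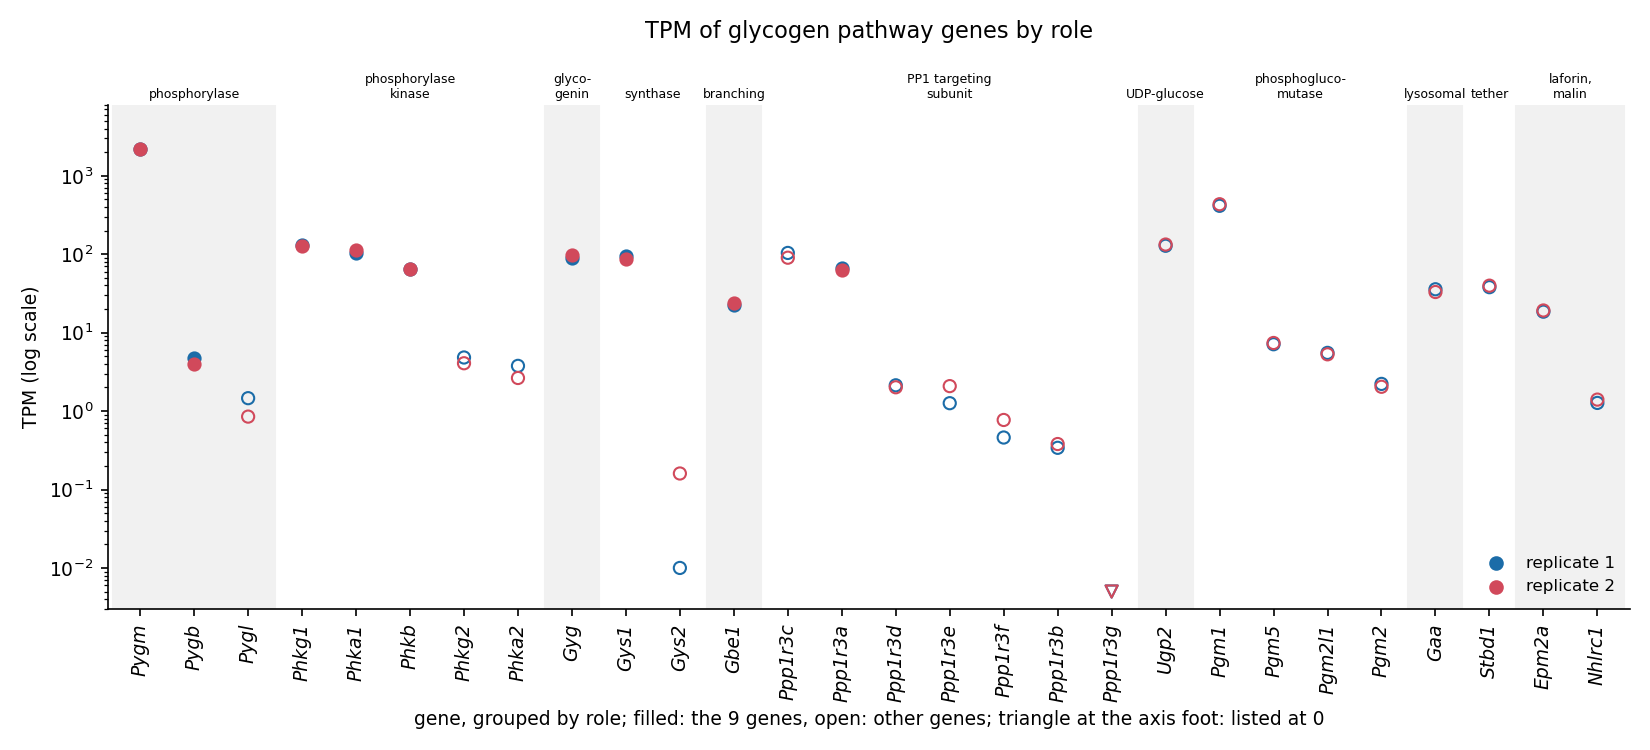
TPM on a log scale of the 9 genes (filled) and of their paralogues and further glycogen enzymes (open), grouped by role, with 1 point per library. In the phosphorylase, kinase and synthase groups the muscle gene is highest, while among the targeting subunits Ppp1r3c at 103.8 and 90.2 TPM lies above Ppp1r3a.

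Set side by side per length, the breakdown step exceeded the building steps. Pygm was 22.7 times Gys1 in replicate 1 and 25.3 times in replicate 2. Within the kinase, Phkg1 was 2.06 and 2.00 times Phkb, and Phka1 was 1.59 and 1.77 times Phkb. These are ratios of RNA, and protein was not measured.

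From highest to lowest by gene TPM the order was Pygm, Phkg1, Phka1, Gyg, Gys1, Phkb, Ppp1r3a, Gbe1 and Pygb. Neighbours whose ranges over the libraries overlapped were Gyg with Gys1 and Phkb with Ppp1r3a. The second quantification gave the same order by mean, with Pygm at 2683 ± 77.9 TPM and Pygb at 5.69 ± 0.169 TPM (SD, n = 2). There the ranges of Phka1 and Gyg overlapped, as did those of Gyg and Gys1.

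The genes differed in how much of their RNA was assigned to transcripts that encode a near-complete protein. The annotation holds 49 transcripts of the 9 genes, and 20 of them averaged 10% or more of their gene in either quantification. Ppp1r3a has 1 annotated transcript, of 6965 bases. For Gys1, Gys1-201 held 96.6% ± 1.53, and for Pygm, Pygm-201 held 85.6% ± 2.06 (SD, n = 2). The rest of Pygm was almost wholly Pygm-203, a record of 532 bases with a retained intron at the 3′ end of the gene, at 13.6% ± 1.71. In the second quantification Pygm-203 held 13.1%.

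Phkb had the lowest share of its TPM, 41.2%, on transcripts with at least 80% of its longest coding sequence, a measure chosen after seeing the data. Phkb-201, with 32 exons, held 41.1% and 41.4% of the gene's TPM. Phkb-206, a 630-base record of the first exons, held 33.8% and 33.2%, and Phkb-207, a noncoding record of 1950 bases that covers the last exons, held 22.2% and 22.4%. Counted over such transcripts alone, Phkb had a mean of 26.4 in place of 64.2 TPM, Phka1 of 75.1 in place of 107.7 TPM and Phkg1 of 100.3 in place of 130.2 TPM. The ratio of Phkg1 to Phkb was then 3.70 and 3.89, and that of Phka1 to Phkb 2.65 and 3.03. The order γ, α, β was the same under both ways of counting, but the order among all 9 genes was not: Gyg at 94.5 TPM and Gys1 at 87.8 TPM then lay above Phka1, and Ppp1r3a at 63.9 TPM above Phkb.

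Several transcript shares depended on the quantification. Gyg-203, with 999 coding bases, held 98.6% and 98.4% of Gyg in the first transcript table but 28.2% and 31.2% in the second. Gyg-201, with 1131 coding bases and the same number of exons, held 0.761% and 0.910% in the first and 70.9% and 68.3% in the second. The libraries were alike within each table, and the tables differed in which glycogenin record was the higher one. For Gbe1, 3 records with equally long coding sequences of 2106 bases shared the gene in the first table, whereas Gbe1-203 alone held 94.1% and 96.7% in the second. In the first table Gbe1-201 went from 14.1% in replicate 1 to 40.5% in replicate 2 while Gbe1-206 went from 43.5% to 18.6%, the widest spread between the libraries among the 20 transcripts. Phkg1-201 held 73.7% and 80.4% in the first table and 68.8% and 77.7% in the second, while the minor record changed from Phkg1-202 to Phkg1-204. The full-length records of Pygm, Pygb, Gys1, Phkb and Phkg1 were the largest of their genes in both tables.

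**Figure D3:**
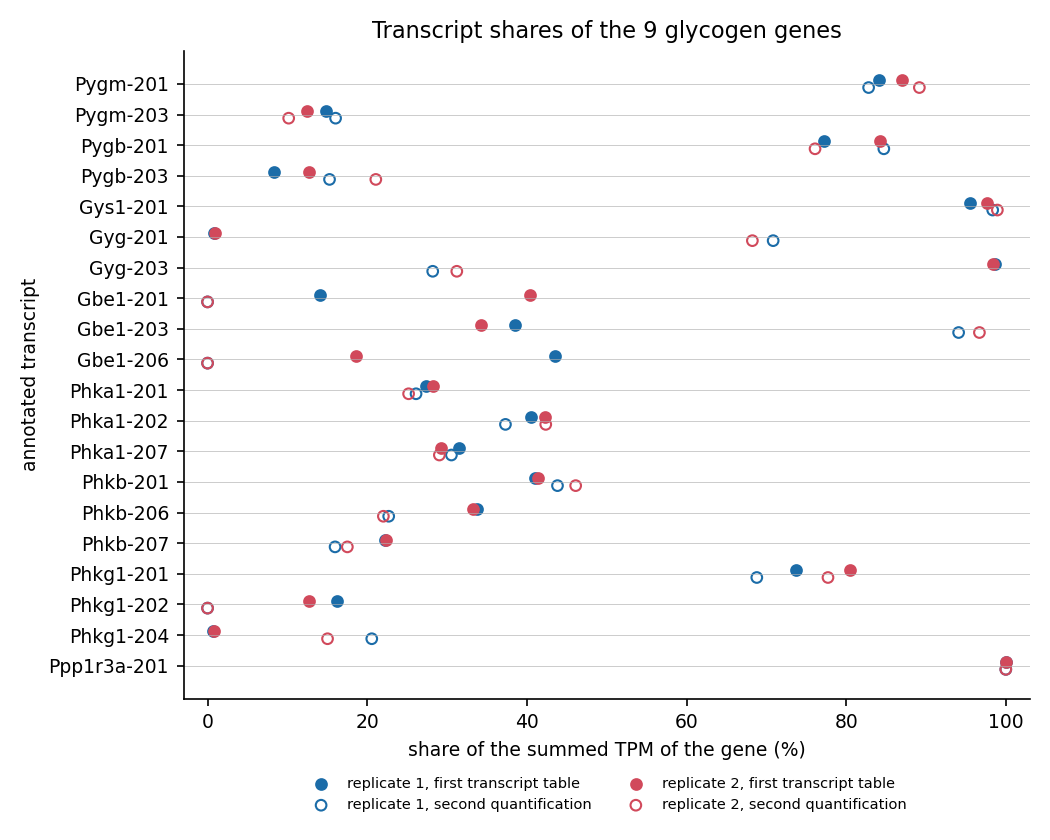
Share of each gene's summed TPM (%) held by the 20 annotated transcripts that averaged 10% or more in either quantification, with 1 point per library (filled for the first transcript table, open for the second). The points of Gyg-201 and Gyg-203 exchange places between the tables, while the Phka1 and Phkb records differ by smaller amounts.

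The design has no second condition, so the only comparison across genes was replicate 2 against replicate 1, which compares these libraries and not conditions. A two-sided exact binomial test on counts scaled by TMM, with Benjamini-Hochberg adjustment over 17245 genes, called 5 of the 9 members, beside 21.5% of all genes tested. Higher in replicate 2 were 4 members, beside 10.9% of all genes, and lower was 1 member, beside 10.6%. The shares over all genes are not matched for counts. Genes with 10 or more counts in the libraries together were tested, whereas members had at least 394 counts per library. The members' median log2 difference was 0.081, against -0.0096 over all genes tested, whose lower and upper quartiles were -0.22 and 0.15. No member was both called and at least 1.5-fold apart, which held for 5.02% of all genes tested.

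On TMM-scaled counts Phka1 had the largest difference of the members, with 16111 counts in replicate 1 and 16956 in replicate 2. It was higher in replicate 2 by 0.23 on the log2 scale (adjusted p = 3.6e-44, exact binomial test). Gyg was higher by 0.18 (adjusted p = 2.1e-08, exact binomial test) from 4639 and 4736 counts. Pygm was higher by 0.087 (adjusted p = 5.0e-64, exact binomial test) and Phkg1 by 0.081 (adjusted p = 0.0036, exact binomial test). Gys1 was the member called lower, at -0.082 (adjusted p = 0.00075, exact binomial test), from 10613 and 9022 counts. Synthase and its primer were thus called in opposite directions in the gene table with TMM scaling, but in the second quantification Gys1 was no longer called (adjusted p = 0.25, exact binomial test).

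Gbe1, Phkb, Pygb and Ppp1r3a did not pass the test, with log2 differences of 0.092, 0.056, -0.099 and -0.031. The scale of log2(TPM + 1) also takes in the transcript lengths each library was given, and it is not TMM-scaled. Ppp1r3a, with a length of 6965 bases in both libraries, stood at -0.086 there against -0.031 on counts. On the TPM scale the 9 differences ran from -0.21 for Pygb to 0.15 for Phka1. Their median size was 0.086, against 0.13 for the 12156 genes averaging 1 TPM or more. Pygm, Phkb and Phkg1 had opposite signs on the TPM and the count scale. The quantifier's intervals of the libraries overlapped for 5 members and were apart for Gys1, Gyg, Phka1 and Ppp1r3a, beside 13.2% of genes averaging 1 TPM or more. For Phka1 replicate 1 had 98.1 to 102.3 TPM, and replicate 2 had 108.6 to 113.0 TPM. The deposited TPM of Phka1 in replicate 2, 113.24, lay above its own interval, and that of Ppp1r3a did so in both libraries.

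**Figure D4:**
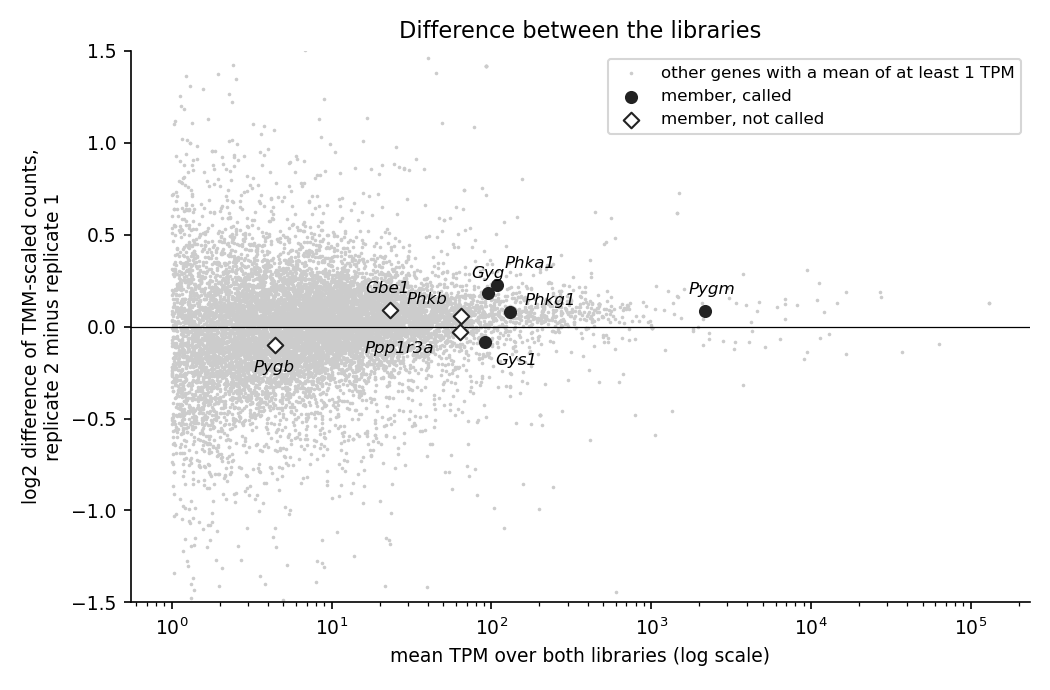
Difference between the libraries in TMM-scaled counts (log2, replicate 2 minus replicate 1) against mean TPM (log scale), for genes averaging 1 TPM or more (grey) and the 9 members (filled where called by the exact binomial test, open where not), with 67 genes outside the plotted range. The members lie between -0.099 for Pygb and 0.23 for Phka1, inside the cloud of other genes.

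These calls depended on the scaling. With the totals of the added ERCC control RNAs in place of TMM, the median of all genes moved to -0.30, all 9 members were called lower in replicate 2, beside 50.8% of all genes tested, and 6 of them changed sign, Pygm to -0.21 and Phka1 to -0.068. Relative to that median, Phka1 stayed highest at 0.24 and Gys1 stood at -0.072. Without taking off that median, Phka1 had the smallest difference of the members in size and Pygb the largest, at -0.39. Exons of Gys1 share 310 of 4789 bases with Ruvbl2, and those of Phkg1 share 630 of 6509 bases with Sumf2, both on the opposite strand, and whether counting used the strand is not given in the sources used here.

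Markers of several cell types also differed between the libraries. With TMM scaling 10.9% of all genes tested were called higher and 10.6% lower, shares that are not matched for counts. The muscle fibre markers had at least 297694 counts per library, where a test of counting error calls small differences. All 6 muscle fibre markers were called higher in replicate 2, with a median log2 difference of 0.15 under TMM scaling, whereas with ERCC totals their differences ran from -0.21 to -0.10. Of 5 fibroblast markers, 4 were called lower and 1 higher, and their sum went from 2547 to 2060 TPM. All 5 adipocyte markers were called higher, with sums of 0.98 and 7.98 TPM, and none reached 1 TPM in both libraries. Schwann cell markers (99.2 and 135.7 TPM, 2 of 5 called higher) and erythroid markers (977 and 1348 TPM, 3 of 5 called higher) summed higher in replicate 2. Endothelial markers (141.5 and 124.0 TPM, 2 of 5 called lower), macrophage markers (30.0 and 28.3 TPM, 1 of 5 called lower) and smooth muscle markers (268.9 and 267.8 TPM, 2 of 5 called higher and 1 lower) made up the other lists. The part of these shifts in the differences of the 9 genes was not tested.

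Around the members, 48 further genes of the pathway were read from 4 lists, and 40 of them had at least 1 TPM in both libraries. By the exact binomial test, 13 of the 45 genes tested were called higher in replicate 2 and 4 lower, beside 10.9% and 10.6% of all genes tested, with a median log2 difference of 0.061. The same shares are the background of each list that follows. Of 10 paralogues of members, Ppp1r3e was called higher, and Phka2 and Ppp1r3c lower, the latter by -0.15 (adjusted p = 6.4e-09, exact binomial test). With TMM scaling Ppp1r3c and Gys1 were thus both called lower in replicate 2, while Ppp1r3a was not called. With ERCC totals, 2 of the further pathway genes were called higher and 32 lower, beside 1.72% and 50.8% of all genes tested, so the directions in the lists that follow hold for TMM scaling.

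Of 10 other glycogen enzymes, 3 were called higher and none lower. Pgm1 on chromosome 4, the phosphoglucomutase that interconverts glucose 1-phosphate and glucose 6-phosphate, measured 414 and 434 TPM and was higher by 0.12 on the count scale. Ugp2, which makes the UDP-glucose that synthase uses, measured 128 and 133 TPM and was higher by 0.11. Stbd1, a protein that binds glycogen to membranes, measured 38.0 and 39.7 TPM and was also called higher. Of the others tested in this list, 7 were not called. Gaa, the lysosomal glucosidase, stood at 35.7 and 33.0 TPM, Epm2a, which encodes the glycogen phosphatase laforin, at 18.5 and 19.2 TPM, and Nhlrc1, which encodes its partner malin, at 1.27 and 1.40 TPM. Pgm1 thus lay above all members other than Pygm in both libraries.

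Of 20 genes that signal to the pathway, 8 were called higher in replicate 2 and none lower. Catalytic subunits of protein phosphatase 1 stood at 120.3 and 116.0 TPM for Ppp1ca, 146 and 150.4 TPM for Ppp1cb, and 49.5 and 49.8 TPM for Ppp1cc. The synthase kinase genes Gsk3a and Gsk3b were lower, at means of 21.5 ± 0.728 TPM and 21.9 ± 0.431 TPM (SD, n = 2). Of the catalytic subunits of protein kinase A in this list, Prkaca stood at 144 and 139 TPM and Prkacb at 20.7 and 18.4 TPM. Irs1, which carries the insulin signal from its receptor, measured 19.4 and 26.6 TPM and was higher by 0.51 (adjusted p = 2.2e-86, exact binomial test).

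Of 8 genes of glucose entry and exit, 1 was called higher and 2 lower. Slc2a4, the insulin-regulated glucose transporter, measured 106 and 86.5 TPM and was lower by -0.28 (adjusted p = 1.2e-27, exact binomial test), while Slc2a1, at 2.16 and 2.59 TPM, was called higher. Hexokinase was mostly Hk2, at 56.2 and 50.3 TPM, with Hk1 at 5.68 and 5.41 TPM. G6pc, the glucose 6-phosphatase by which liver releases glucose, had no count in either library, which allows up to 3 counts in each, whereas the widely expressed G6pc3 stood at 16.4 and 14.9 TPM.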

How the data were processed

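The reference was mm10 with GENCODE M21, per the labels and the deposited description. Aligner and quantifier names were not stated in the sources used here. Each library has, as deposited by the authors, gene and transcript tables with expected counts and TPM, and a second transcript quantification, which was summed per gene as an alternative. The bounds of the quantifier's TPM interval in the deposited tables were read as signal values. All 18 expected counts of the members were whole within 0.005, and counts were rounded. Reads of CAST/EiJ alleles were not separated.

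The 9 members, the 4 pathway lists, the 9 marker lists and the pairs were chosen with earlier results of these data known. Named are all members, their paralogues, genes of the pathway lists and transcripts averaging 10% or more of a gene in either quantification. Values of a few such genes are left out of this account. Ratios in the text are plain TPM ratios in each library, other than the ratio of Gys1 to Gys2 per base of transcript. That ratio is from the counts of both libraries together. Log2 ratios add 1 TPM to each gene. TPM differences between the libraries are on the log2(TPM + 1) scale, without a test.

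Libraries were compared with a two-sided exact binomial test (scipy 1.17.1) on genes with 10 or more counts in the libraries together, given TMM sizes from edgeR 4.0.16 in R 4.3.3. The Benjamini-Hochberg adjustment covered every gene tested, with a threshold of 0.05. The test was checked on simulated counts that vary by counting error alone, so the check does not reach other variation between libraries. The test itself covers counting error only. Alternatives were DESeq2 1.42.0 size factors, ERCC totals, total counts, no minimum of counts, a fold of 1.5, other pseudocounts, the second quantification, 1 library alone and, added after seeing the data, near-complete coding transcripts. With 2 libraries, a sign-flip test cannot go below 0.5, so levels and ratios have no test.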

Additional observations from a re-analysis of the deposited data

How the results depend on the processing

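The median member level, 90.9 TPM, was 119 TPM in the second quantification, 194 TPM when TPM was rescaled to nuclear protein-coding genes and 75.1 TPM over near-complete coding transcripts, and 85.7 to 90.6 TPM in 1 library alone. With 1 library left out, 8 of 9 paralogue pairs kept the gene set first as the higher one. The log2 ratio of Gys1 to Gyg, -0.060 over both libraries, was 0.084 in replicate 1 alone. With ERCC totals, 9 members were called lower and 0 higher, and the log2 differences of Pygm, Gyg, Gbe1, Phka1, Phkb and Phkg1 turned to -0.21, -0.11, -0.20, -0.068, -0.24 and -0.21. Of 45 pathway genes tested, 17 were called (13 higher, 4 lower) with TMM and 34 (2 higher, 32 lower) with ERCC totals. Requiring a fold of 1.5 left 0 members in either direction and 2 pathway genes (1 higher, 1 lower), since fewer genes can pass. Total counts called 2 members lower, Ppp1r3a added (adjusted p = 0.019, exact binomial test), and the second quantification called 0 members lower. The cause was not tested for the other changes. DESeq2 size factors and no minimum of counts changed no call of a member. No paired analysis was possible because the series holds a single group. Low counts limit Gys2, at 1 and 2 counts, and Ppp1r3g and G6pc, at 0.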
